A study of Mus musculus with 8 samples.

Results

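Globin genes and 2 further red cell genes were examined in whole brains of newborn mice. The set held 8 of the 49585 gene identifiers counted on the B genome (C57BL/6J, GRCm38), taken by their symbols. These were the adult α-globin copies *Hba-a1* and *Hba-a2*, the adult β-globin copies *Hbb-bs* and *Hbb-bt*, the embryonic β-type globins *Hbb-bh1* and *Hbb-y*, the heme synthesis gene *Alas2* and the red cell anion exchanger gene *Slc4a1*. The 8 libraries came from B × C F1 females, with a C57BL/6J mother and a CAST/EiJ father, taken at postnatal day 1 by the labels. Dams drank water with 0 ppm Cd (4 libraries, controls) or 50 ppm Cd given as CdCl2 (4 libraries), from before mating until birth, and each pup came from another litter. All 8 pups carry the same hybrid genome, so reads of the CAST/EiJ alleles were counted on the C57BL/6J sequence. Each library holds poly(A) RNA of a portion of 1 pulverized whole brain, and whether blood was removed from the brains is not given in the sources used here.

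Hemoglobin is a tetramer of α- and β-globin chains, each carrying heme. Maturing red cells make globin at very high levels, and the youngest circulating red cells, reticulocytes, still carry globin mRNA after the nucleus is gone. *Alas2* encodes the red cell form of the enzyme that starts heme synthesis, and *Slc4a1* encodes band 3, which exchanges chloride and bicarbonate across the red cell membrane and anchors its skeleton. Some neurons and glia have also been described to express globin genes. In a whole brain, a lower level of such a gene can come from fewer cells or from less RNA per cell, and these cannot be told apart.

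Both α-globin genes lie on chromosome 11, *Hba-a1* at chr11:32283511-32284465 and *Hba-a2* at chr11:32296489-32297298, both on the plus strand. The β-globin cluster lies on the minus strand of chromosome 7, with *Hbb-bt* at chr7:103812524-103813996, *Hbb-bs* at chr7:103826534-103828096, *Hbb-bh1* at chr7:103841637-103843164 and *Hbb-y* at chr7:103851749-103853216. *Slc4a1* lies at chr11:102348824-102366203 on the minus strand and *Alas2* at chrX:150547375-150570638 on the plus strand. None of the globin genes or *Slc4a1* shares exon bases with another annotated gene. *Alas2* shares 15.5% of its exon bases with genes on the opposite strand, *Apex2* and *Mir3620*, so part of its count is uncertain where strand was not used in counting.

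The copies of each adult globin are nearly the same in sequence, which bears on every count given here. The coding sequences of *Hba-a1* and *Hba-a2* (426 bases) differ at 1 base, and those of *Hbb-bs* and *Hbb-bt* (441 bases) also differ at 1 base. The coding stretch of 60 bases around that base is shown for each copy, with the differing base in capitals.
Hba-a1: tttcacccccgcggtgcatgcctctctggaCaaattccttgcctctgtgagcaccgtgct
Hba-a2: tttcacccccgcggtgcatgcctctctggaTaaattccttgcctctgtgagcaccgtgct
Hbb-bs: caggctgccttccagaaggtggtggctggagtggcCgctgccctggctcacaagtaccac
Hbb-bt: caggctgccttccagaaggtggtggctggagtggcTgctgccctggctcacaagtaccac
Of the 312 windows of 115 bases, the length of a trimmed read, in the *Hba-a1* coding sequence, 46 (14.7%) tell it from *Hba-a2*. For *Hbb-bs* against *Hbb-bt* the count was 25 of 327 (7.6%). Over the whole annotated transcripts, 47.2% of the windows of *Hba-a1*, 29.8% of *Hba-a2*, 38.5% of *Hbb-bs* and 46.3% of *Hbb-bt* occur in 1 gene only. The levels of the copies therefore depend on how reads that fit both were treated, and the copies of a pair are not ranked against each other. Embryonic *Hbb-y* and *Hbb-bh1* have no such copy, and all of their windows occur in 1 gene only. Their coding sequences share 74.4% and 73.9% of bases with *Hbb-bs*. The CAST/EiJ sequences of these genes were not compared.

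The stretches upstream of an adult and an embryonic globin are shown because 1 of these genes was read in every library and the other had at most 2 counts in any library. Capitals mark the CACCC box (letters CACCC), the CCAAT box (letters CCAAT), the GATA motif (letters AGATAA) and the TATA box (letters TATAA), each searched on both strands in the RefSeq promoter sequences (GRCm38.p6). The *Hba-a2* stretch covers chr11:32296367-32296488 on the plus strand, and the *Hbb-y* stretch covers chr7:103853217-103853332 on the minus strand, in both without bases inside an annotated exon.
Hba-a2: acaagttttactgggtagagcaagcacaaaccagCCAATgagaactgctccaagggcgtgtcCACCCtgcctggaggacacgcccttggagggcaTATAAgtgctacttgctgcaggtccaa
Hbb-y: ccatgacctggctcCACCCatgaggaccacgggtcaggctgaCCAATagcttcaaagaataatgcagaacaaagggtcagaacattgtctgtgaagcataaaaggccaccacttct
Within 125 bases upstream of the start, *Hba-a1*, *Hba-a2*, *Hbb-bs* and *Hbb-bt* each held a CACCC box, a CCAAT box and a TATA box. *Hbb-y* held a CACCC box and a CCAAT box. *Alas2* held a GATA motif and 3 matches to the CACCC box, all on the opposite strand. Of 32851 promoters of the same length, 32.7% held the CACCC box, 21.9% the CCAAT box, 12.3% the TATA box and 4.6% the GATA motif. The RefSeq promoter windows of *Hba-a1* and *Hba-a2* share an unbroken stretch of 297 of their 300 bases. These matches describe letters and not bound sites.

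The 8 libraries held 22916434 to 30708087 counted reads, and 3 counts, the floor under which no fold change is given, came to 0.098 to 0.132 CPM. CPM here are counts scaled to a common depth by library sizes normalized with TMM. Brain markers were high, with *Dcx* at 1936 ± 170 CPM (SD, n = 4) in controls and 1832 ± 109 (n = 4) at 50 ppm, while the brain markers *Tubb3* and *Sox2*, which newborn brain expresses, were listed at 0 in all libraries. Of 23113 genes tested between doses with edgeR's quasi-likelihood test, 4 passed an adjusted p of 0.05, which is 0.0173% of them. None of these 4 belongs to the globin and erythroid set or to a list used here.

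Adult globin mRNA was read in every newborn brain, and its level differed more between brains of the same dose than between doses. *Hbb-bs* was counted at 51.1, 100.7, 109.7 and 127.7 CPM in control replicates 1 to 4 and at 40.1, 61.6, 168.9 and 81.6 CPM in 50 ppm replicates 1 to 4. The lowest and the highest brain were both from the 50 ppm group, and the control values lay between them. Controls averaged 97.3 ± 32.8 CPM (SD, n = 4) and exposed brains 88.1 ± 56.5 CPM (SD, n = 4). The log2 fold change was -0.14 (SE 0.31, 95% interval -0.79 to 0.51, edgeR adjusted p = 0.999).

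*Hba-a1*, an adult α-globin copy, was counted at 48.6, 104.4, 96.8 and 123.2 CPM in the 4 controls and at 38.3, 61.8, 152.7 and 79.4 CPM in the 4 exposed brains. The same brains were lowest and highest as for *Hbb-bs*. Its log2 fold change was -0.17 (SE 0.30, 95% interval -0.79 to 0.46, edgeR adjusted p = 0.999). *Hba-a2* ranged from 12.2 to 28.1 CPM at 0 ppm and from 8.95 to 33.8 CPM at 50 ppm, and *Hbb-bt* from 10.9 to 23.6 and from 8.24 to 33.7 CPM. Their log2 fold changes were -0.20 (SE 0.29) and -0.08 (SE 0.30). In each of these genes the 50 ppm group spanned the whole control range.

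Together, the 6 globins took 0.00976% (50 ppm replicate 1) to 0.0387% (50 ppm replicate 3) of the counted reads. The Wilson 95% intervals of these shares, 0.0094% to 0.0101% and 0.0380% to 0.0395%, cover counting error only. Summed CPM were 122.8, 246.5, 252.9 and 302.4 in control replicates 1 to 4, and 95.6, 149.8, 389.2 and 196.8 in the exposed replicates. The highest brain was 4.07 times the lowest at 50 ppm and 2.46 times the lowest at 0 ppm. The mean sum was 231.2 ± 76.4 CPM (SD, n = 4) in controls and 207.9 ± 127.8 CPM (SD, n = 4) in exposed brains, a ratio of 0.899.

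**Figure D1:**
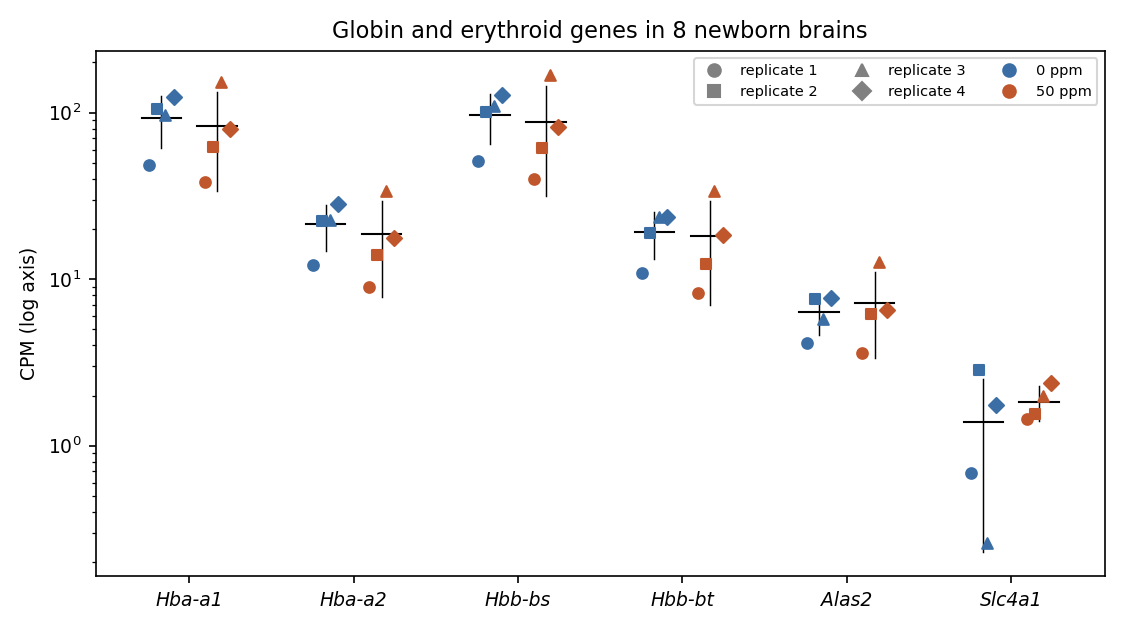
CPM of the 6 genes read above 3 counts, on a log axis, in each of the 4 control (blue) and 4 exposed (orange) brains, with the shape giving the replicate, horizontal bars the mean and vertical lines ± 1 SD. In the 4 adult globins and *Alas2*, 50 ppm replicate 3 is highest and 50 ppm replicate 1 lowest, whereas *Slc4a1* has its lowest value, 0.261 CPM, in control replicate 3.

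The embryonic β-type globins had between 0 and 2 counts in each library. *Hbb-bh1*, which is active in the primitive red cells of the early embryo, was listed at 0 in all 8 libraries. Since *Tubb3* and *Sox2* are listed at 0 as well, no upper limit is drawn from this. *Hbb-y*, the other early embryonic gene of the cluster, had 0, 0, 1 and 0 counts in controls and 2, 1, 2 and 0 counts at 50 ppm. No library passed 3 counts, so no fold change is given for it. Of the embryonic α-type globin *Hba-x*, 0 to 2 counts were found per library.

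*Alas2* had the same lowest and highest brain as the globins. Its level was 4.13, 7.63, 5.78 and 7.71 CPM in control replicates 1 to 4 and 3.58, 6.14, 12.7 and 6.49 CPM in 50 ppm replicates 1 to 4. Again 50 ppm replicate 3 was highest and 50 ppm replicate 1 lowest, and the exposed range held the control range. The log2 fold change was 0.20 (SE 0.28, 95% interval -0.39 to 0.78, edgeR adjusted p = 0.999).

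*Slc4a1* was counted at 0.683, 2.83, 0.261 and 1.74 CPM in controls and 1.44, 1.55, 2.00 and 2.38 CPM at 50 ppm. These are 20, 76, 8 and 45 reads in controls and 41, 44, 56 and 54 reads at 50 ppm. The exact Poisson 95% interval of the 8 reads in control replicate 3, 3.45 to 15.8 reads, lies below that of the 76 reads in control replicate 2, 59.9 to 95.1 reads, and both cover counting error only. The spread among controls (coefficient of variation 83.4%) was larger than that at 50 ppm (23.6%), and the difference in spread was not tested. The log2 fold change was 0.43 (SE 0.43, 95% interval -0.48 to 1.34, edgeR adjusted p = 0.999).

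Compared per kilobase of exon, the mean over the 8 brains was 120.7 CPM per kb for *Hbb-bs* and 108.6 for *Hba-a1*, against 2.82 for *Alas2* and 0.329 for *Slc4a1*. The spread of the globins was wide for their level. The tagwise biological coefficient of variation, edgeR's estimate of variation beyond counting error, was 0.308 for *Hbb-bs* and 0.297 for *Hba-a1*, where genes of like abundance had 0.0882 and 0.0884. It was 0.274 for *Alas2* against 0.150 and 0.423 for *Slc4a1* against 0.207. The median over all tested genes was 0.151.

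Of the 8 members, 7 passed the filter on low values, since *Hbb-bh1* was at 0. In edgeR's test 0 of these 7 passed an adjusted p of 0.05, against 0.0173% of all genes, and DESeq2 also called 0. At an unadjusted p under 0.05 the count was 0 of 7 by edgeR, against 3.75% of all genes tested, and 0 by DESeq2. The 2 doses did not separate without overlap for any of the 7, against 2.09% of all genes. With 4 brains a dose and this spread, the 95% interval of *Hbb-bs* still holds a log2 difference of -0.79 or of 0.51, so differences of that size cannot be told from 0 in these libraries.

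The sign of the globin difference hung on single brains. Without 50 ppm replicate 3, the 4 adult globins had log2 fold changes of -0.67 to -0.57, with adjusted p of at least 0.994 by edgeR. Unadjusted p by edgeR were 0.0125 (*Hba-a2*), 0.0139 (*Hbb-bs*), 0.0195 (*Hba-a1*) and 0.037 (*Hbb-bt*). That brain had the highest value in each of these genes, so a lower mean and a narrower spread at 50 ppm follow from leaving it out. The 4 genes rose and fell together, so these p-values are not 4 separate readings. The share of all genes at such a p is not given for this fit. Without 50 ppm replicate 1 they were 0.04 to 0.16. *Alas2* went from 0.20 to -0.22 without 50 ppm replicate 3. *Slc4a1* was at 1.06 without control replicate 2 (unadjusted p = 0.0198 by edgeR) and at 0.07 without control replicate 3. Control replicate 2 was its highest brain and control replicate 3 its lowest, so these shifts follow from which brain was left out.

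**Figure D2:**
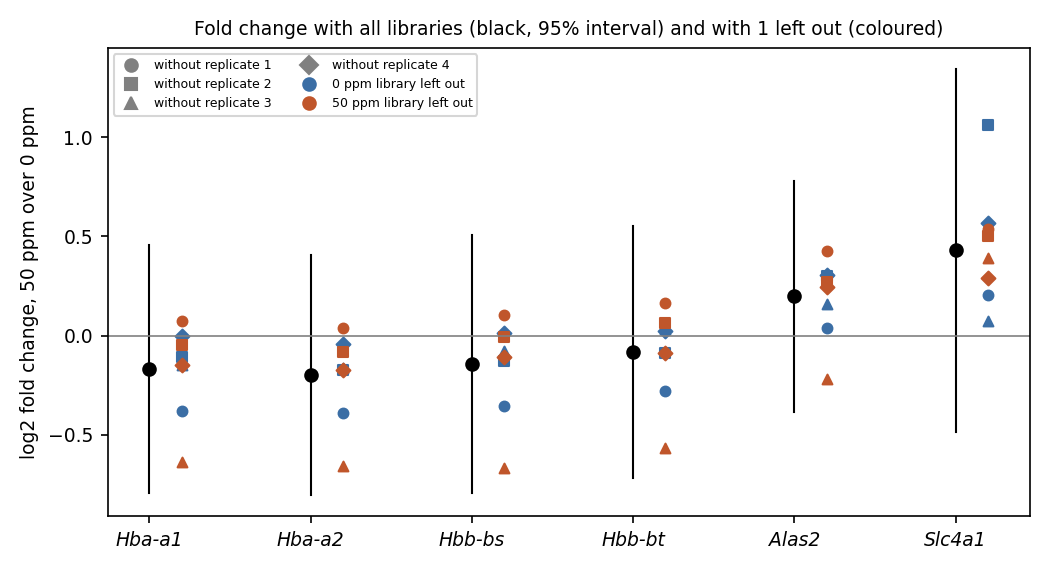
Log2 fold change of 50 ppm over 0 ppm for each gene, with all 8 libraries (black, line giving the 95% interval) and with each library left out in turn (blue, a control left out, and orange, an exposed brain left out, with the shape giving the replicate). All 6 black intervals include 0, and the orange triangle, without 50 ppm replicate 3, is the lowest point for the 4 adult globins and *Alas2*.

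The globins rose and fell together from brain to brain, and their proportions hardly moved. The ratio of *Hba-a1* to *Hba-a2* counts lay between 3.99 and 4.67 in the 8 libraries, and that of *Hbb-bs* to *Hbb-bt* between 4.45 and 5.44. The ratio of the α pair to the β pair lay between 0.897 (control replicate 3) and 1.06 (control replicate 2), with a mean of 0.985 ± 0.0672 (SD, n = 4) in controls and 0.973 ± 0.0425 (SD, n = 4) in exposed brains. Chi-square per degree of freedom, which is near 1 where libraries differ by counting error alone, was 0.865 for the α copies, 2.01 for the β copies and 5.35 for α against β. It was 558.3 for *Hbb-bs* against all counted reads. The proportions of the copies may include reads that could have been given to either copy, since the treatment of such reads is not given.

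*Alas2* reads per 100 β-globin reads ranged from 4.34 in control replicate 3 to 8.31 in 50 ppm replicate 2. Controls averaged 5.62 ± 1.09 (SD, n = 4) and exposed brains 7.11 ± 0.938 (SD, n = 4), and the groups overlapped. *Slc4a1* reads per 100 β-globin reads ranged from 0.196 in control replicate 3 to 2.98 in 50 ppm replicate 1, a 15.2-fold range against 1.92-fold for *Alas2*.

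**Figure D3:**
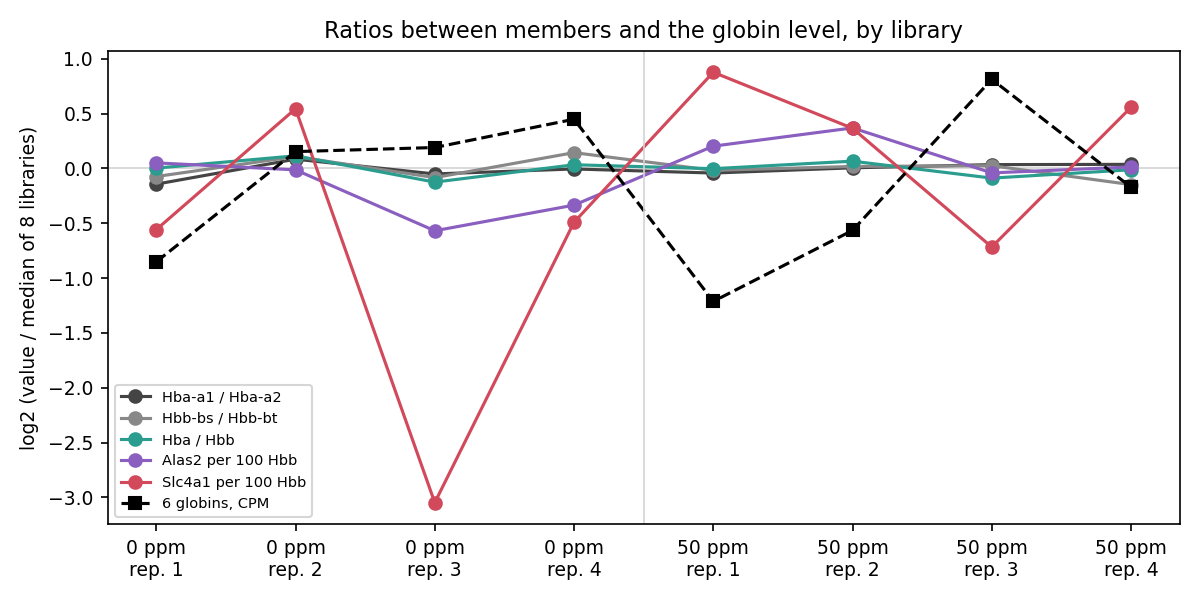
Ratios between members in each library, as log2 of the value over the median of the 8 libraries, with the summed CPM of the 6 globins (dashed) on the same scale. The 3 ratios between globins stay near 0 while the globin sum runs from 95.6 to 389.2 CPM, and *Slc4a1* per 100 β-globin reads drops in control replicate 3.

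Across the 8 brains, log2 CPM of *Hbb-bs* was set against that of each other member with enough reads, which made 5 relations. Pearson's r was 0.997 with *Hba-a2* (exact permutation p = 2.48e-05, the smallest that 8 libraries allow, Benjamini-Hochberg adjusted p = 8.27e-05), and Spearman's rho was 1.0 (exact permutation p = 4.96e-05, adjusted p = 0.000248). With *Hba-a1*, r was 0.995 (exact permutation p = 4.96e-05, adjusted p = 8.27e-05) and rho 0.98 (exact permutation p = 0.000397, adjusted p = 0.000661). With *Hbb-bt*, r was 0.991 and rho 0.98, with the same p-values as for *Hba-a1*. *Hbb-bs* and *Hbb-bt* share windows, so their counts may not be independent readings.

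With *Alas2*, r was 0.914 (exact permutation p = 0.00159, adjusted p = 0.00198) and rho 0.86 (exact permutation p = 0.0107, adjusted p = 0.0134). With *Slc4a1*, r was 0.133 (exact permutation p = 0.762, adjusted p = 0.762) and rho 0.33 (exact permutation p = 0.428, adjusted p = 0.428), so no relation was detectable in 8 brains. The difference between the correlations was not tested. Without the 2 brains farthest from the median, 50 ppm replicates 1 and 3, r was 0.988 for *Hba-a1*, 0.995 for *Hba-a2*, 0.976 for *Hbb-bt*, 0.775 for *Alas2* and 0.073 for *Slc4a1*. After the mean of each dose was subtracted, r was 0.994, 0.998, 0.991, 0.956 and 0.247 in the same order. Without control replicate 3, r with *Slc4a1* was 0.572.

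**Figure D4:**
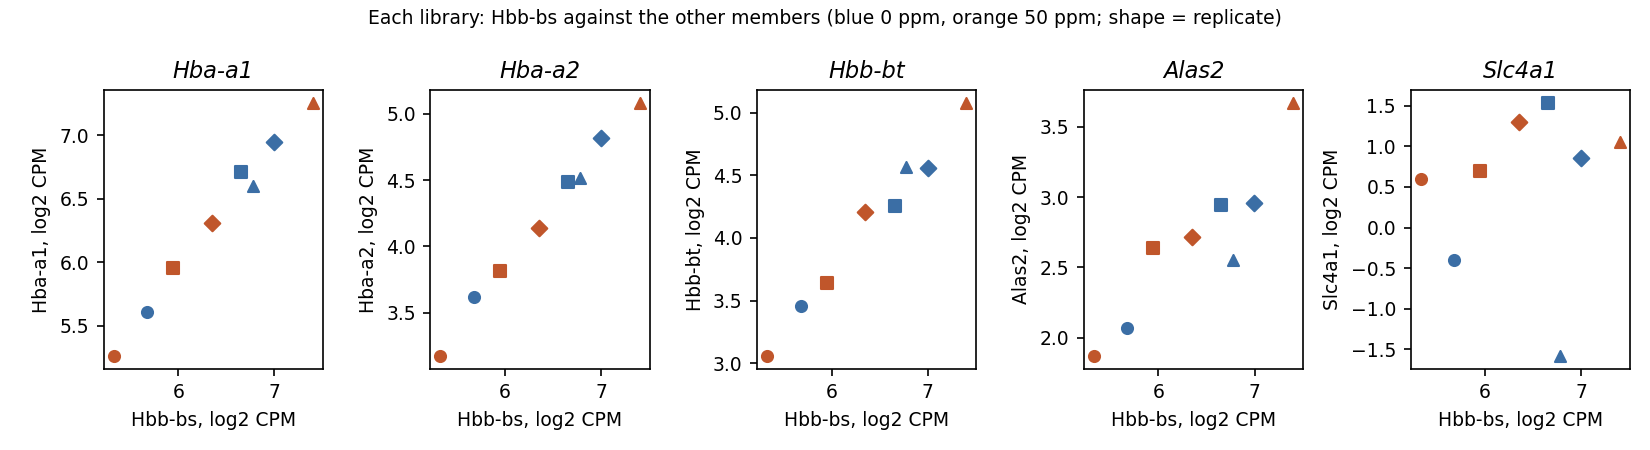
Log2 CPM of *Hbb-bs* (horizontal) against log2 CPM of each other member (vertical) in the 8 libraries, blue for 0 ppm and orange for 50 ppm, with the shape giving the replicate. The libraries lie along a line for *Hba-a1*, *Hba-a2* and *Hbb-bt* (r of 0.991 to 0.997), more loosely for *Alas2* (r = 0.914), and without order for *Slc4a1* (r = 0.133).

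Other genes of hemoglobin production and red cells gave no call between doses. The 6 lists of other globins, heme synthesis, red cell membrane, red cell maturation, erythroid transcription factors and heme clearance held 63 genes, of which 59 were tested. By edgeR 0 of the 59 rose and 0 fell at an adjusted p of 0.05, and DESeq2 called 0. At an unadjusted p under 0.05 edgeR gave 1 higher and 1 lower, a share near the 3.75% of all genes tested. These were *Sptb*, β-spectrin of the membrane skeleton, with a log2 fold change of 0.23 (SE 0.09), and *Epor*, the erythropoietin receptor, with -0.76 (SE 0.34), the latter chosen after its value was seen. The median log2 fold change over all genes tested was -0.003.

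All 10 heme synthesis genes were tested, with a median log2 fold change of -0.05 and summed CPM that ranged 1.08-fold between the 8 brains. *Alas2*, the red cell form of the first enzyme, is not in this list and ranged 3.54-fold, so the sum need not read red cells. *Alas1*, the form of the first enzyme used in most tissues, was at 38.3 ± 3.22 CPM (SD, n = 4) in controls and 37.0 ± 2.80 (n = 4) at 50 ppm. *Fech*, which puts iron into heme, was at 39.5 ± 2.35 and 37.7 ± 2.54 CPM (n = 4 each). *Alad*, which acts after *Alas1* and *Alas2*, had a log2 fold change of -0.07 (SE 0.09), and *Abcb10*, a mitochondrial transporter, of -0.04 (SE 0.08).

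The list of 14 red cell membrane genes had a median log2 fold change of -0.04. Its leading members by CPM, *Add2*, *Tmcc2*, *Epb41* and *Sptb*, are also used in neurons or other cells, and its summed CPM ranged 1.14-fold between brains. The maturation list (13 of 14 genes tested, since *Ahsp* was not named in the table) had a median of 0.05, led by *Bnip3l*, *Xpo7* and *Bpgm*. The transcription factor list (9 of 10 tested) had a median of -0.04, led by *Bcl11a*, a repressor of fetal-type globins that is also expressed in neurons, at -0.14 (SE 0.09). In the clearance list (7 of 7 tested, median 0.16) *Cd163*, the macrophage receptor for hemoglobin, was at 0.16 (SE 0.29) and *Hmox1*, which breaks down heme, at -0.10 (SE 0.15). Of the other globins (6 of 8 tested, median 0.08), *Cygb* was at 25.1 ± 3.24 CPM (SD, n = 4) and 23.3 ± 2.51 (n = 4), and *Ngb*, the globin of neurons, at 4.47 ± 0.672 and 4.24 ± 1.33 (n = 4 each).

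*Klf1*, an erythroid transcription factor of red cell precursors, had few reads, and its order among brains differed from that of the globins. It was chosen after its values were seen. It had 4, 14, 5 and 10 counts in controls and 9, 7, 4 and 4 at 50 ppm. Control replicate 2, highest in *Slc4a1*, had the most counts, while 50 ppm replicate 3, highest in the globins, had 4. *Tal1*, a transcription factor of the same list with 353 to 673 counts a library, was lowest where the globins were lowest, at 12.4 CPM in 50 ppm replicate 1 and 13.9 CPM in control replicate 1. It was highest in control replicate 4 (26.1 CPM) and 50 ppm replicate 3 (23.8 CPM), which were also the highest in globins. Other genes of this list went otherwise. *Lmo2* ranged only from 15.2 to 19.5 CPM. It was at 19.5 CPM both in 50 ppm replicate 1, the brain lowest in globins, and in control replicate 4. In 50 ppm replicate 3, the brain highest in globins, it was at 18.7 CPM. *Gata1* had 8 counts in 50 ppm replicate 1 and 1 count in 50 ppm replicate 3. The part of red cells in the *Tal1* reads was not tested.

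Markers of other cells that blood or brain dissection could bring were set beside the globin sum, library by library. The sum of the 6 globins ranged 4.07-fold over the 8 brains. The summed CPM of 10 platelet genes ranged 1.33-fold (16.4 to 21.8 CPM). *Gp1bb* made up most of that sum (67.8% to 79.9%), and 92.9% of its exon bases overlap *Sept5* and *Gm49601* on the same strand, so the sum need not read platelets. Without *Gp1bb* the other 9 genes ranged 1.39-fold, from 4.09 CPM in control replicate 2 to 5.68 CPM in control replicate 3. The sum of 10 neutrophil genes ranged 1.97-fold (4.92 to 9.69), and that of 10 lymphocyte genes 3.40-fold (0.465 to 1.58). The lymphocyte sum rests on few reads, and its leading gene, *Cd4*, had 5 to 17 counts a library. The globin sum rests on 2726 to 10907 counts a library, so counting error weighs far more on the lymphocyte range. In 50 ppm replicate 3, highest in globins, the neutrophil sum was the lowest of the 8, at 4.92 CPM. The endothelial sum was the highest in that brain, at 410.5 CPM, but 50 ppm replicate 4 was close, at 407.5 CPM. The globin sum of 50 ppm replicate 4 was 196.8 CPM. The heme clearance sum was also the highest in 50 ppm replicate 3, at 564.4 CPM, of which *Lrp1* alone made up 529.9 CPM. *Cd163* and *Hmox1* of the same list had their highest values in other brains.

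The sums of 12 endothelial genes (343 to 411 CPM), 10 microglia and macrophage genes (139.0 to 199.8 CPM) and 10 meningeal genes (492.1 to 677.6 CPM) ranged 1.20-, 1.44- and 1.38-fold. The sum of 10 choroid plexus genes ranged 3.35-fold, from 380.4 CPM in 50 ppm replicate 1 to 1273 CPM in control replicate 2, the brain highest in *Slc4a1*. The part of these cells in the globin and *Slc4a1* levels was not tested. Between doses, edgeR called 0 genes of these 7 lists and of the brain list. At an unadjusted p under 0.05 there were 6 of the 78 genes tested in these lists, against 3.75% of all genes, with 3 of 10 microglia and macrophage genes and 2 of 10 meningeal genes higher at 50 ppm and 1 of 8 brain genes lower. Their median log2 fold changes were -0.15 for platelet, -0.06 for neutrophil, 0.45 for lymphocyte, 0.09 for endothelium, 0.17 for microglia and macrophages, 0.12 for meninges, -0.21 for choroid plexus and 0.01 for brain. DESeq2 called 1 of them, the meningeal gene *Aldh1a2*, an enzyme of retinoic acid synthesis, at a log2 fold change of 0.44 (SE 0.0974, adjusted p = 0.0127), where edgeR gave an adjusted p of 0.298.

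**Figure D5:**
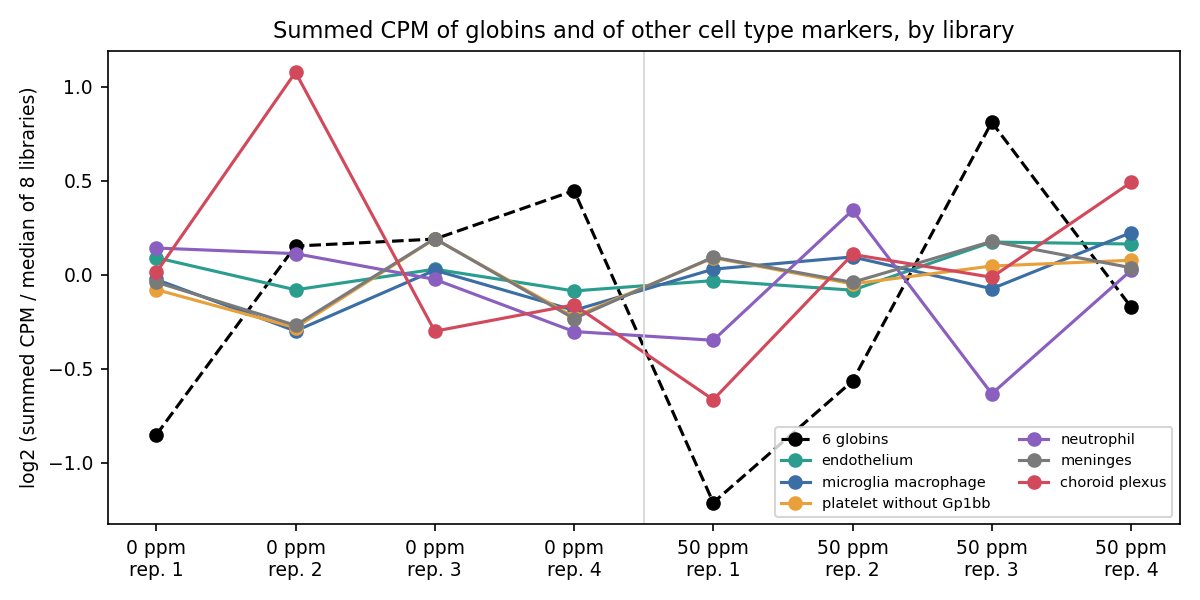
Summed CPM of the 6 globins (dashed black) and of marker lists of other cell types in each library, as log2 of the sum over the median of the 8 libraries. The platelet line leaves out *Gp1bb*. The globin sum spans 4.07-fold and the endothelial sum 1.20-fold, and the choroid plexus sum peaks in control replicate 2.

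The genes outside the set whose log2 CPM was most like the log2 globin sum over the 8 libraries were found among the 16526 genes that reached 10 counts in 4 or more libraries. They were *Gata3* (Pearson's r = 0.970), *Gm11738* (0.943), *Sec63* (0.940), *Ephb1* (0.929), *Nkapd1* (0.928), *Rbm7* (0.927), *Irak3* (0.920), *Nr2f1* (0.919), *Zfp777* (0.919) and *Chrna7* (0.917). Each point is 1 library, and the highest of so many correlations are large by selection. *Gata3* went from 5.86 CPM in 50 ppm replicate 1 to 14.2 CPM in 50 ppm replicate 3, and *Sec63* only from 101.1 to 116.6 CPM between the same brains. None of the 10 belongs to a red cell list used here.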

How the data were processed

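RNA-seq counts of 8 whole brains were analysed. The deposited values are unnormalized counts of reads on each gene. By the study's methods the initial 10 bases of the 125-base single-end reads had been trimmed, the reads aligned with STAR and counted with htseq-count. Versions, strand setting and treatment of multiply aligned reads are not given in the sources used here. Counts for the CAST/EiJ alignment were not used, since their identifiers are not paired with names for these genes. Names were found for 49326 of 49585 identifiers. Coordinates and overlaps came from GENCODE vM21 (GRCm38), and promoters from RefSeq.

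Following the study's methods, a gene was dropped if over 2/3 of the libraries had no count for it. The remaining 23113 were fitted with edgeR 4.0.16 (TMM, glmQLFit, glmQLFTest, treatment as the only term) in R 4.3.3, with Benjamini-Hochberg adjustment over all of them. The study reported fewer genes on the B genome after its quality control, so the 2 gene sets differ, and the reason was not examined. Adjusted p and shares of all genes refer to the 23113. The SE is the absolute log2 fold change over the square root of F. Log2 CPM used a prior count of 2. Permutation tests were two-sided and exact. Alternatives used DESeq2 1.42.0, limma 3.58.1, other filters and scalings, and each library left out. Python 3.11.15, scipy 1.17.1 and matplotlib 3.10.9 were used. Code was tested on simulated data.

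The members and lists were chosen with earlier results of these data known. Named genes are the members, up to 4 genes of each list by mean CPM, any list gene past the threshold, and the 10 genes most like the globin sum. *Hba-x*, *Epor*, *Klf1*, *Gata1*, *Tubb3*, *Sox2* and, as the lone DESeq2 call, *Aldh1a2* fall outside this rule and were picked with their values in view. Each pup came from a different litter by the study's methods. Replicate numbers follow the order of the labels' samples and only name a library. Data other than RNA-seq were not analysed here. The values of 1 list gene are left out of the text, and the list counts include it.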

Additional observations from a re-analysis of the deposited data

How the results depend on the processing

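No member passed the threshold under any of the 15 alternatives. No paired analysis was possible because the labels give no replicate numbers, and those used here only name libraries. The number of all genes called, 4 in the reported fit, was 18 with DESeq2, 22 with DESeq2's independent filtering set for 0.05, 52 without a filter, 2 when 10 counts were needed in 4 or more libraries and 1 with limma-voom, and 2 to 20 with a library left out (20 without control replicate 3, 8 without 50 ppm replicate 3, and 2 each without control replicate 1, control replicate 2 or 50 ppm replicate 4). The setting at 0.05 was run first, before the planned DESeq2 default, and was kept as an alternative added after the data were seen. Of the genes on the fixed lists, 0 were called in the reported fit and 1, *Aldh1a2*, with either DESeq2 setting. The cause of these differences was not tested.

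With a library left out, the log2 fold change ran from -0.64 to 0.08 for *Hba-a1*, -0.66 to 0.04 for *Hba-a2*, -0.67 to 0.10 for *Hbb-bs*, -0.57 to 0.16 for *Hbb-bt*, -0.22 to 0.43 for *Alas2* and 0.07 to 1.06 for *Slc4a1*. The sign turned without 50 ppm replicate 1 for the 4 adult globins, without control replicate 4 also for *Hbb-bs* (0.01) and *Hbb-bt* (0.03), without control replicate 3 (0.03) or 50 ppm replicate 2 (0.06) for *Hbb-bt*, and without 50 ppm replicate 3 for *Alas2*. Under limma-voom the values were -0.35 for *Hbb-bs* and 0.73 for *Slc4a1*. The correlation of *Hbb-bs* with *Slc4a1* ran from -0.018 to 0.572, and those with the 3 other adult globins stayed at 0.985 or above. The ratio of summed globin CPM was 0.90 with DESeq2's size factors. *Slc4a1* rests on as few as 8 reads a library.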
